A study of Homo sapiens with 4 samples.

Results

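The 40 genes described here encode the cytosolic heat shock machinery and the chaperonin, and they were taken by name from the 61541 genes of the deposited count table. They comprised 2 heat shock factors, 8 stress-inducible heat shock proteins, 7 constitutive heat shock proteins, 15 co-chaperones and the 8 subunits of the chaperonin. The rule for the list uses gene names and no threshold on a value, although the list was drawn up with earlier results of these data known. RNA came from MHCC97H, an established human hepatocellular carcinoma (HCC) cell line, in 2 libraries of control cells (shCon) and 2 libraries of cells with a short hairpin RNA against UBXN1 (shUBXN1). UBXN1 is a ubiquitin-binding protein with a UBX domain, through which such proteins bind the ATPase VCP. All 4 libraries came from the same line, and none carried another labelled treatment. The labels describe a transfected hairpin, whereas the methods describe stable lentiviral lines, and neither says which UBXN1 hairpin the sequenced cells held. The control is called shCon in the labels and shRFP in the methods. The labels do not say whether the 2 libraries of a group were separate cultures, so p-values measure the spread between these libraries, which may be technical.

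Heat shock proteins bind unfolded or newly made proteins and help them to reach or regain their folded form. The HSP70 proteins work through cycles of ATP binding and release, in which J proteins deliver the client and start ATP hydrolysis and nucleotide exchange factors such as the BAG proteins and HSPH1 let the client go. HSP90 receives clients from HSP70 and matures kinases and steroid receptors with the help of its own cofactors. The chaperonin, also called TRiC, is a double ring of related subunits that encloses actin, tubulin and other proteins while they fold. Under proteotoxic stress the transcription factor HSF1 binds heat shock elements, which are inverted repeats of the letters GAA, and raises the transcription of the inducible genes. HCC cells are known for high levels of several of these chaperones.

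UBXN1 itself (ENSG00000162191, chromosome 11, 62676498 to 62679117 in GRCh38, minus strand) stood at 67.1 and 77.3 CPM (counts scaled to the library size) in shCon and at 16.8 and 18.5 CPM in shUBXN1. Library sizes were adjusted with the TMM factors of edgeR, and depth ran from 23373700 to 27380508 counts per library. UBXN1 fell by 2.03 on the log2 scale (SE 0.0963, adjusted p = 9.98e-10, edgeR quasi-likelihood test with Benjamini-Hochberg adjustment over 16863 genes). Of 9 leukocyte, endothelial and stromal markers, 4 could be tested, of which 2 (COL1A1 and PECAM1) rose and 1 (CD68) fell. COL1A1 went from 0.375 and 0.170 CPM in shCon to 2.34 and 2.52 CPM in shUBXN1 (log2 fold change 3.11). PECAM1 went from 33.4 and 33.2 CPM to 43.0 and 41.9 CPM, and CD68 from 82.4 and 88.3 CPM to 72.9 and 70.5 CPM. VWF did not pass (log2 fold change 1.21, adjusted p = 0.0501, edgeR). CD3E had no count and PTPRC stayed at or below 0.171 CPM. The 9 together held 109 and 112 TPM (transcript level, scaled for gene length as well) in shCon and 108 and 97.0 TPM in shUBXN1. Of 9 hepatocyte and HCC markers, 5 fell and 2 rose. Albumin (ALB) went from 18.0 and 17.2 CPM to 4.20 and 4.78 CPM, and the epithelial keratin KRT8 from 3354 and 3467 CPM to 2329 and 2715 CPM. The 2 that rose were another keratin, KRT18, and SERPINA1. KRT18 went from 895 and 949 CPM to 1045 and 1247 CPM, and SERPINA1 from 8.21 and 9.02 CPM to 10.9 and 11.8 CPM. The summed level of that list was 5394 and 5444 TPM in shCon and 4637 and 5053 TPM in shUBXN1. The mitochondrial genome took 5.28% and 5.59% of the counts in shCon and 7.43% and 8.27% in shUBXN1. These shifts moved with the comparison, and their part in the results below was not tested.

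Most of the heat shock and chaperonin genes were lower in the UBXN1-knockdown cells. Of the 39 that passed the filter on low counts, 28 fell (71.8%) and 3 rose (HSPB8, DNAJB4 and BAG1) at a Benjamini-Hochberg adjusted p under 0.05 in the edgeR quasi-likelihood test. Across all 16863 genes tested, 28.2% fell and 28.0% rose by the same criterion. The median log2 fold change was -0.44 over the 39 genes and 0.02 over all genes. With a fold of 2 and an unadjusted p under 0.05 as criterion, HSPA1A, HSPA1B and CRYAB were lower and HSPB8 was higher, against 6.09% of all genes lower and 11.8% higher. In 31 of the 39 genes both shUBXN1 libraries lay below both shCon libraries, which held for 38.6% of all genes. The 8 genes that did not pass were HSPB1, HSPA4, HSPA4L, HSPA13, DNAJB6, STUB1, CDC37 and FKBP4. In bulk RNA, fewer cells with a transcript and less of it per cell cannot be told apart.

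The folds were mostly modest in size, and the genes concerned were abundant. Among genes with a mean of at least 100 CPM, a background chosen after the values were seen, 979 of 2120 genes fell (46.2%) with a median log2 fold change of -0.15. The 26 heat shock and chaperonin genes at that level included 21 that fell (80.8%) and had a median of -0.50. The only one of the 26 with a log2 fold change above 0 was CDC37, which did not pass. Summed over the 40 genes, the level was 13120 and 13177 TPM in shCon and 8954 and 9321 TPM in shUBXN1, and the knockdown mean was 30.5% below the control mean (13149 ± 40.5 and 9137 ± 259.6 TPM, SD, n = 2). Their share of all TPM was 1.31% and 1.32% in shCon and 0.895% and 0.932% in shUBXN1. The spread within each group was far smaller than the gap between the groups. An exact permutation test over 2 against 2 libraries cannot go below p = 0.333.

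**Figure D1:**
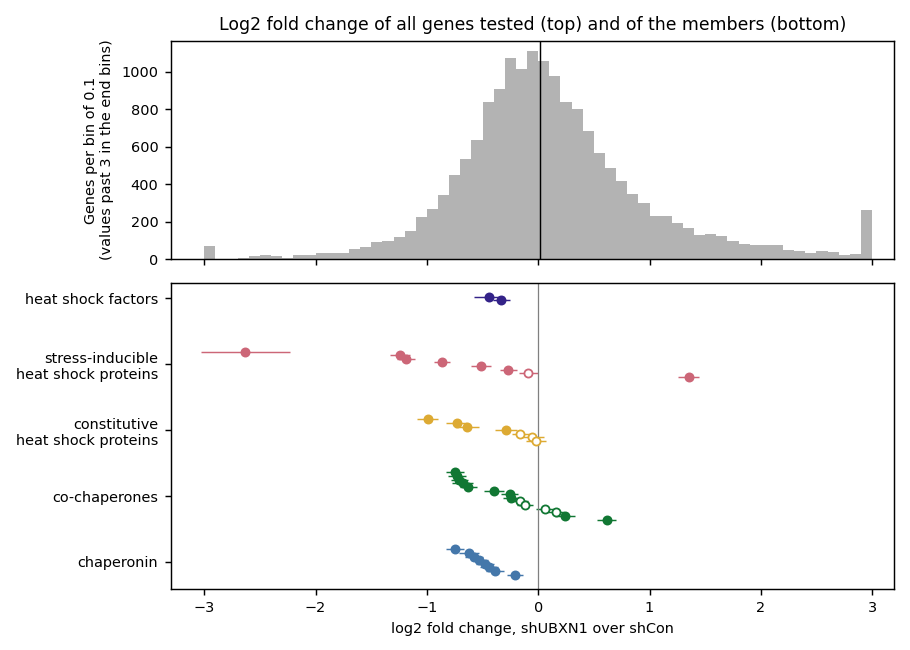
Top, histogram of the log2 fold change, shUBXN1 over shCon, of all 16863 genes tested in bins of 0.1, with values past 3 in either direction collected in the end bins and a black line at the median (0.02). Bottom, 1 point per heat shock or chaperonin gene by role on the same axis, with bars of ± SE and open points for an adjusted p of 0.05 or more, where the points lie mostly to the left of 0 and all chaperonin points do.

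The promoters of the genes that the results turn on are shown first, since several hold the element that HSF1 binds. RefSeq windows on GRCh38.p14, from 250 bases before to 50 bases after a transcript start, were at hand for 34 of the 40 genes and not for HSF1, CRYAB, HSPA14, STUB1, FKBP4 and CCT6A. The window was searched on both strands for 3 alternating units (GAANNTTCNNGAA or TTCNNGAANNTTC) and for 2 units (GAANNTTC or TTCNNGAA), and every match of 3 units also contains a match of 2 units. A match of 3 units was found for 166 of 27305 genes (0.608%) and for 5 of the 34 (14.7%), namely HSPA8, HSP90AA1, HSP90AB1, DNAJA1 and DNAJB6. A match of 2 units was found for 4417 of 27305 genes (16.2%) and for 18 of the 34 (52.9%). The sequences below run 5′ to 3′ in the direction of the gene, with the matched letters in capitals. The coordinates given with each match are those of the whole printed stretch, including the bases in small letters.

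The matches of 3 units are given with the position of the first matched base relative to the transcript start. For HSPA8 they lie at -55 (chr11:123062171-123062199, minus strand) and -230 (chr11:123062346-123062374, minus strand). The HSP90AA1 match lies at -88 (chr14:102087112-102087140, minus strand). HSP90AB1 has matches at -165 (chr6:44247770-44247798, plus strand) and -112 (chr6:44247823-44247851, plus strand). The DNAJA1 match starts at base 4 of the transcript (chr9:33025268-33025296, plus strand), and the DNAJB6 match at -131 (chr7:157336865-157336893, plus strand).
HSPA8: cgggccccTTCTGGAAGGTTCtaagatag
HSPA8, distal: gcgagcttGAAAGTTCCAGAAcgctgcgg
HSP90AA1: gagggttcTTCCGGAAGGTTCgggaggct
HSP90AB1, distal: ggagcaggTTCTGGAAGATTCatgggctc
HSP90AB1: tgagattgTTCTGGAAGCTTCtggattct
DNAJA1: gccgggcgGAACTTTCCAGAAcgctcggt
DNAJB6: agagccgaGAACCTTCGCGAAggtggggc

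Among genes with 2 units only, a match is shown for the 3 largest falls and for both rises, and DNAJB1 and HSPB8 hold further matches. Those shown lie at -106 in HSPA1A (chr6:31815426-31815455, plus strand), at -105 in HSPA1B (chr6:31827622-31827651, plus strand), at -77 in DNAJB1 (chr19:14518456-14518485, minus strand), at -88 in HSPB8 (chr12:119178832-119178861, plus strand) and at -98 in DNAJB4 (chr1:78004830-78004859, plus strand).
HSPA1A: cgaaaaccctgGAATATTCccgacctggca
HSPA1B: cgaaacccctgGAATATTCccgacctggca
DNAJB1: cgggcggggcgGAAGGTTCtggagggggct
HSPB8: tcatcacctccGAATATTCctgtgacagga
DNAJB4: agcatttgctgTTCTAGAAagtacagagac

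Of the 5 genes with 3 units, 4 fell (HSPA8, HSP90AA1, HSP90AB1 and DNAJA1), and DNAJB6 had a log2 fold change of -0.12 that did not pass. Of the 17 tested genes with at least 2 units, 12 fell and 2 rose, the risers being HSPB8 and DNAJB4. Over the 33 tested genes with a window, 72.7% fell. Outside the 40 genes, 56 tested genes had 3 units in their window, of which 15 fell (26.8%) and 16 rose, with a median log2 fold change of -0.07. All 11676 tested genes with a window included 31.8% that fell and had a median of -0.03. For 2 units, 519 of 1602 tested genes outside the 40 fell (32.4%). Outside the 40, the share that fell was close to the background for genes with 2 units and no larger with 3 units. A match is a run of letters and does not show that a factor is bound there. A window without a match does not show that no element is present, since other letters and other positions were not searched. BAG3 and HSPH1 had windows without a match. Whether the element had a part in the falls was not tested.

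**Figure D2:**
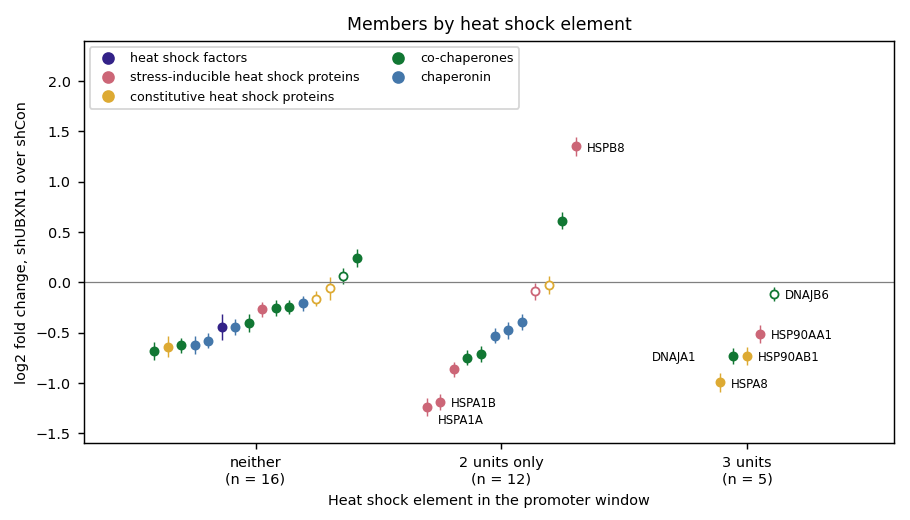
The log2 fold change of each tested gene with a promoter window (y axis, shUBXN1 over shCon, bars ± SE), grouped by whether the window held no match, a match of 2 units only or a match of 3 units, coloured by role and open where the adjusted p was 0.05 or more. Genes below 0 occur in every group, and the largest rise, HSPB8, stands in the group with 2 units.

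The heat shock factors, which govern the response, were both lower in shUBXN1. HSF1 (ENSG00000185122), the main activator, had 98.5 and 102 CPM in shCon and 77.2 and 82.3 CPM in shUBXN1. HSF2 (ENSG00000025156), a related factor that can form mixed trimers with HSF1, had 15.3 and 15.5 CPM in shCon and 12.4 and 10.1 CPM in shUBXN1. For either gene both knockdown libraries lay below both control libraries, as for 38.6% of all genes. HSF1 fell by 0.33 on the log2 scale (SE 0.0741, adjusted p = 0.00157) and HSF2 by 0.44 (SE 0.132, adjusted p = 0.0105, edgeR). The HSF2 call was lost with total count scaling (log2 fold change -0.36, adjusted p = 0.0639) and with limma on log2(TPM + 1) (adjusted p = 0.0858).

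Among the stress-inducible heat shock proteins, 6 of 8 fell, beside 28.2% of all genes tested, while 1 rose and 1 did not pass. The median log2 fold change of the 8 was -0.69. Their summed level fell from 2765 and 2893 TPM to 2016 and 2108 TPM, a mean 27.1% below shCon. HSPA1A (ENSG00000204389, chromosome 6, 31815543 to 31817946), the classical inducible HSP70, went from 559 and 650 CPM in shCon to 244 and 267 CPM in shUBXN1. HSPA1B (ENSG00000204388, chromosome 6, 31827738 to 31830254) encodes the same protein from the neighbouring gene and went from 389 and 426 CPM to 176 and 181 CPM. Both knockdown libraries were well below both control libraries for either gene. HSPA1A fell by 1.24 on the log2 scale (SE 0.0898, adjusted p = 4.89e-08) and HSPA1B by 1.19 (SE 0.0780, adjusted p = 1.98e-08, edgeR). The sequences of the pair are nearly identical, so reads may have been divided between them, and their summed counts fell by 1.22. HSPA1B also shares 36.6% of its exon bases with another annotated gene on the same strand, ENSG00000285565.

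DNAJB1 (ENSG00000132002, chromosome 19, 14514769 to 14560391), the inducible J protein that serves HSPA1A, had 217 and 228 CPM in shCon and 119 and 125 CPM in shUBXN1. HSP90AA1 (ENSG00000080824, chromosome 14, 102080742 to 102139699), the inducible HSP90, had 1650.5 and 1698 CPM in shCon and 1088 and 1257 CPM in shUBXN1. Both were lower in each knockdown library. DNAJB1 fell by 0.86 (SE 0.0742, adjusted p = 2.61e-07) and HSP90AA1 by 0.51 on the log2 scale (SE 0.0921, adjusted p = 0.000279, edgeR). HSPH1, the HSP110 exchange factor for HSP70, went from 171 and 182 CPM to 141 and 151 CPM and fell by 0.27 (adjusted p = 0.00736, edgeR). The HSPH1 call was lost without shCon replicate 2 (log2 fold change -0.24, adjusted p = 0.182).

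The small heat shock proteins, which hold unfolding proteins in a refoldable state, went in different directions. CRYAB (ENSG00000109846, chromosome 11, 111908564 to 111923722), alpha-B crystallin, was counted only 78 and 65 times in shCon and 14 and 8 times in shUBXN1. That corresponded to 2.93 and 2.77 CPM against 0.566 and 0.342 CPM, with no overlap between the groups. CRYAB fell by 2.63 on the log2 scale (SE 0.400, adjusted p = 6.43e-05, edgeR), the largest change among the 39 genes, and by 1.41 on the log2(CPM + 1) scale. It shares 13.6% of its exon bases with genes on the opposite strand. HSPB8 (ENSG00000152137, chromosome 12, 119171555 to 119224855), which acts with BAG3 in the disposal of misfolded proteins by autophagy, went the other way. HSPB8 had 36.5 and 41.6 CPM in shCon and 92.2 and 107 CPM in shUBXN1, so that both knockdown libraries lay above both control libraries. HSPB8 rose by 1.35 on the log2 scale (SE 0.0924, adjusted p = 2.90e-08, edgeR). HSPB1, or HSP27, the most abundant small heat shock protein of the list per length, had 270 and 293 CPM in shCon and 246 and 282 CPM in shUBXN1. The HSPB1 groups overlapped (log2 fold change -0.09, SE 0.0839, adjusted p = 0.382, edgeR). With the trend on GC content removed, the HSPB1 log2 fold change was -0.30 (adjusted p = 0.00820, edgeR). Without shUBXN1 replicate 2 it was -0.21 (adjusted p = 0.00778).

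**Figure D3:**
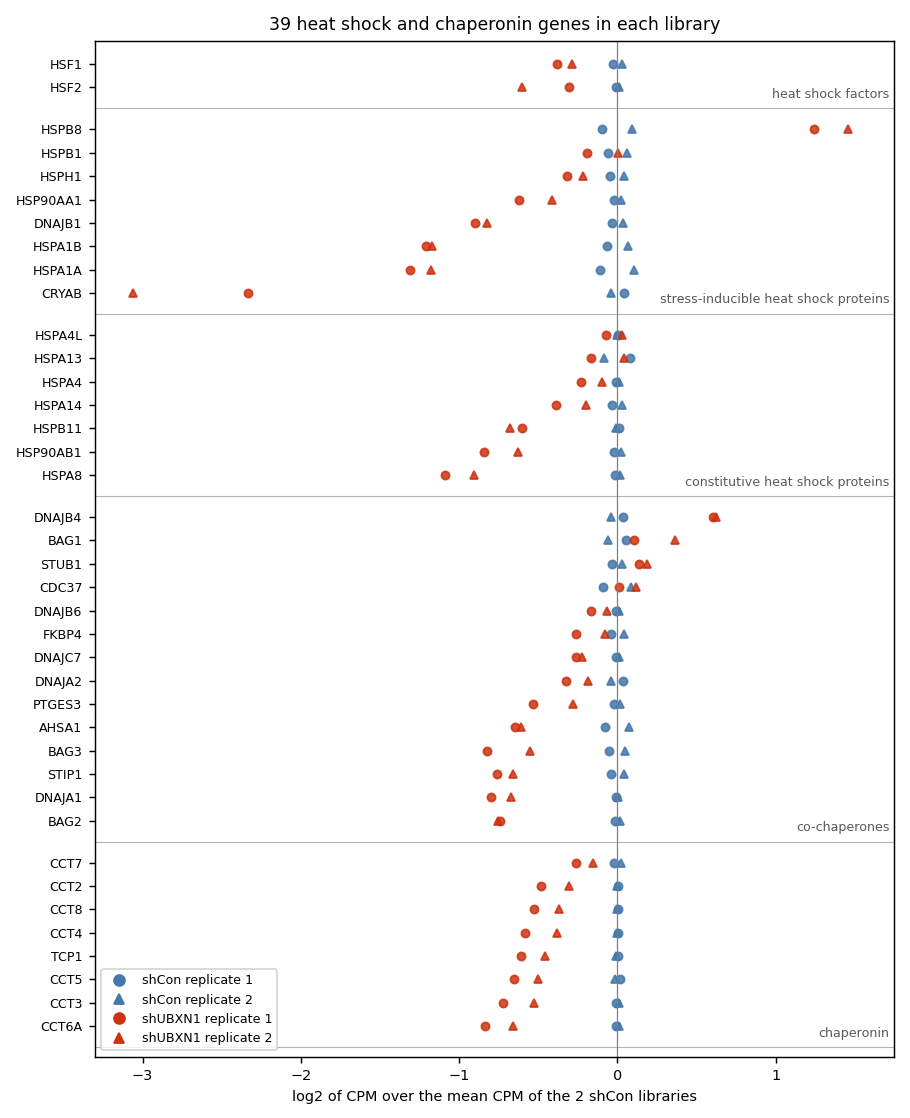
The log2 of the CPM in each library over the mean CPM of the 2 shCon libraries (x axis) for the 39 tested heat shock and chaperonin genes, by role, with circles for replicate 1 and triangles for replicate 2, shCon in blue and shUBXN1 in red. The red points lie to the left of the blue ones for most genes and to the right for HSPB8, DNAJB4, BAG1 and STUB1, of which STUB1 did not pass the test.

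The constitutive heat shock proteins, which fold proteins in unstressed cells, lost the most in summed level. They held 4161 and 4146 TPM in shCon and 2312 and 2443 TPM in shUBXN1, a mean 42.8% below shCon. Of these 7 genes, 4 fell (57.1%) and 3 did not pass, beside 28.2% of all genes tested that fell. HSPA8 (ENSG00000109971, chromosome 11, 123057489 to 123063230), the constitutive HSC70, was the most abundant of the 40 genes per length. It had 3061 and 3138 CPM in shCon and 1459 and 1655 CPM in shUBXN1, and the groups were far apart. HSPA8 fell by 0.99 on the log2 scale (SE 0.0948, adjusted p = 7.43e-07, edgeR). Its part of the summed TPM of the 40 genes was 20.6% and 20.4% in shCon and 15.3% and 15.5% in shUBXN1.

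HSP90AB1 (ENSG00000096384, chromosome 6, 44246166 to 44253888), the constitutive HSP90, went from 1611 and 1666 CPM to 913 and 1061 CPM. HSP90AB1 fell by 0.73 (SE 0.0925, adjusted p = 1.16e-05, edgeR). HSPB11 went from 23.4 and 23.0 CPM to 15.3 and 14.5 CPM and fell by 0.64 (adjusted p = 0.000130, edgeR). Despite its name, HSPB11 is now annotated as IFT25, a subunit of the intraflagellar transport complex. HSPA14, a ribosome-associated HSP70, fell by 0.29 (adjusted p = 0.0220, edgeR), from 27.9 and 29.2 CPM to 21.8 and 24.8 CPM. The HSPA14 call was lost with total count scaling, DESeq2 and GC correction (adjusted p = 0.0755, 0.0790 and 0.0539), without shCon replicate 2 (0.133) and without shUBXN1 replicate 1 (0.105). The gene overlaps MSANTD7 on the same strand over 12.7% of its exon bases, and that gene held counts amounting to 78.2% to 91.8% of those of HSPA14. The exchange factors HSPA4 and HSPA4L had log2 fold changes of -0.16 (adjusted p = 0.0870, edgeR) and -0.02. HSPA13, whose product is found with microsomes and not in the cytosol, had a log2 fold change of -0.06.

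The balance between related genes was read from ratios of TPM within each library. HSP90AA1 stood to HSP90AB1 as 0.780 and 0.776 in shCon and as 0.908 and 0.903 in shUBXN1, so the constitutive gene was lower relative to the inducible gene in both knockdown libraries. The sum of HSPA1A and HSPA1B stood to HSPA8 as 0.292 and 0.323 in shCon and as 0.271 and 0.255 in shUBXN1. For HSPB8 to BAG3, a ratio chosen after the values were seen, the libraries gave 0.708 and 0.751 in shCon and 3.05 and 2.93 in shUBXN1. The groups did not overlap in any of the 3 ratios. For HSPB8 to BAG3 the gap follows from the rise of HSPB8 and the fall of BAG3 and is no separate result. The two-sided exact permutation p was 0.333 for each ratio, the smallest that 2 against 2 libraries allow.

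**Figure D4:**
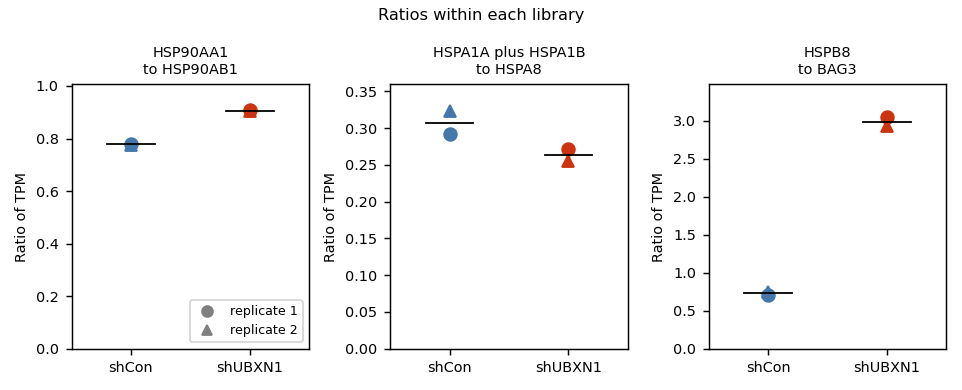
Ratios of TPM within each library for HSP90AA1 to HSP90AB1, HSPA1A plus HSPA1B to HSPA8 and HSPB8 to BAG3, 1 point per library with a short line at the mean of each group. The ratio of HSPB8 to BAG3 lies between 0.708 and 0.751 in shCon and between 2.93 and 3.05 in shUBXN1.

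The co-chaperones were mixed. Among 14 tested, 8 fell (57.1%, beside 28.2% of all genes tested), 2 rose and 4 did not pass. The summed level of the role went from 2761 and 2788 TPM to 2210 and 2252 TPM, a mean 19.6% below shCon. BAG2 (ENSG00000112208), which inhibits the ubiquitin ligase STUB1, had 57.6 and 58.7 CPM in shCon and 34.8 and 34.5 CPM in shUBXN1. DNAJA1 (ENSG00000086061), a J protein for HSPA8, had 568 and 573 CPM in shCon and 328 and 359 CPM in shUBXN1. For both genes the knockdown libraries lay clearly below the control libraries. BAG2 fell by 0.75 (SE 0.0779, adjusted p = 1.76e-06) and DNAJA1 by 0.73 on the log2 scale (SE 0.0789, adjusted p = 2.44e-06, edgeR). BAG2 shares 44.2% of its exon bases with genes on the opposite strand, and whether counting used strand is not given in the sources used here.

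BAG3 (ENSG00000151929), the partner of HSPB8 and an HSF1 target, went from 71.0 and 76.2 CPM to 41.7 and 50.3 CPM and fell by 0.68 (SE 0.0918, adjusted p = 2.17e-05, edgeR). STIP1, or HOP, which passes clients from HSP70 to HSP90, fell by 0.71, AHSA1, the activator of the HSP90 ATPase, by 0.63, and PTGES3, or p23, by 0.40 on the log2 scale. DNAJA2 and DNAJC7 fell by 0.25 and 0.24. The DNAJA2 call was lost without shCon replicate 1 and without shCon replicate 2 (adjusted p = 0.113 and 0.0666), as was the DNAJC7 call (adjusted p = 0.0563 and 0.149, edgeR). DNAJB4 (ENSG00000162616), a J protein also called HLJ1, had 29.7 and 28.2 CPM in shCon and 44.0 and 44.6 CPM in shUBXN1, with no overlap. It rose by 0.61 (SE 0.0834, adjusted p = 2.30e-05, edgeR). BAG1 (ENSG00000107262), an exchange factor that links HSP70 to the proteasome, had 59.1 and 54.7 CPM in shCon and 61.3 and 73.3 CPM in shUBXN1. BAG1 rose by 0.24 (SE 0.0907, adjusted p = 0.0353, edgeR), and its call was lost with DESeq2 (adjusted p = 0.0701), without shCon replicate 2 (0.331) and without shUBXN1 replicate 2 (0.347).

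The kinase-specific HSP90 cofactor CDC37, with 187 and 211 CPM in shCon and 199.6 and 215 CPM in shUBXN1, overlapped between the groups (log2 fold change 0.06, adjusted p = 0.526, edgeR). STUB1, or CHIP, the ubiquitin ligase that tags chaperone clients, had 68.1 and 71.1 CPM in shCon and 76.7 and 79.1 CPM in shUBXN1 (log2 fold change 0.16, adjusted p = 0.0752, edgeR). Its exons overlap those of JMJD8 on the opposite strand over 42.5% of their bases. The immunophilin FKBP4 and DNAJB6, a J protein that curbs aggregation, had log2 fold changes of -0.17 and -0.12. DNAJA4 was not tested, since it was below the filter, at 2 and 5 counts (shCon) and 8 and 6 counts (shUBXN1).

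**Figure D5:**
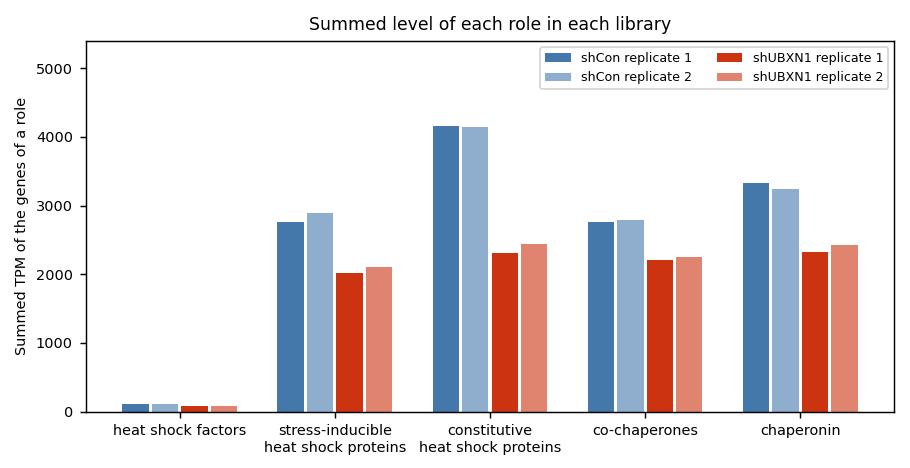
Summed TPM of the genes of each role in each library (bars from 0, 1 bar per library). All 5 roles are lower in both shUBXN1 libraries, and the constitutive heat shock proteins have the highest sum in shCon, 4161 and 4146 TPM.

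All 8 chaperonin subunits fell, beside 28.2% of all genes tested and 46.2% of genes with a mean of at least 100 CPM. The log2 fold changes of the subunits ran from -0.75 (CCT6A) to -0.21 (CCT7), with a median of -0.50. Together they held 3326 and 3245 TPM in shCon and 2327 and 2433 TPM in shUBXN1, a mean 27.6% below shCon. CCT6A (ENSG00000146731, chromosome 7, 56051685 to 56063989) went from 576 and 582 CPM to 324 and 366 CPM (SE 0.0821, adjusted p = 2.95e-06, edgeR). CCT7 (ENSG00000135624, chromosome 2, 73233420 to 73253021) went from 337 and 347 CPM to 285 and 307 CPM (SE 0.0758, adjusted p = 0.0302, edgeR). Both shUBXN1 libraries lay below both shCon libraries for all 8 subunits, which held for 38.6% of all genes. The CCT7 call was lost with total count scaling (adjusted p = 0.0569), without shCon replicate 1 (0.115) and without shCon replicate 2 (0.316). Counts of 4 CCT6 pseudogenes amounted to 2.52% to 6.37% of those of CCT6A, and with them added CCT6A fell by 0.70.

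Although the chaperonin holds its subunits in equal number, their transcripts differed in level per length. In shCon the mean level was 1121 TPM for CCT3, 449 TPM for CCT6A, 371 TPM for CCT7, 370.4 TPM for CCT2, 286 TPM for CCT8, 239 TPM for TCP1, 234 TPM for CCT4 and 214 TPM for CCT5. CCT7 (372 and 371 TPM) and CCT2 (377 and 364 TPM) overlapped in shCon, as did TCP1 (244 and 234 TPM) and CCT4 (237 and 229.95 TPM). In shUBXN1 the mean level was 758 TPM for CCT3, 335 TPM for CCT7, 294 TPM for CCT2, 278 TPM for CCT6A, 219 TPM for CCT8, 175 TPM for CCT4, 172 TPM for TCP1 and 149 TPM for CCT5. CCT6A moved from the second place to the fourth in this order, below CCT7 and CCT2 in both knockdown libraries. TCP1 fell by 0.53, CCT2 by 0.39, CCT3 by 0.62, CCT4 by 0.48, CCT5 by 0.58 and CCT8 by 0.44 on the log2 scale.

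Set side by side, the median log2 fold changes were -0.69 for stress-inducible heat shock proteins, -0.50 for the chaperonin, -0.39 for the heat shock factors, -0.29 for constitutive heat shock proteins and -0.25 for co-chaperones. By summed TPM the order was different, since HSPA8 and HSP90AB1 carried most of the constitutive sum. Whether the roles differed from each other was not tested. Other genes also overlap neighbours on the opposite strand. HSF1, DNAJB1, DNAJC7 and TCP1 do so over 2.58%, 6.85%, 7.08% and 9.30% of their exon bases. The neighbours of DNAJC7 held 104% to 116% of its counts. Those of DNAJB1 held 25.7% and 28.6% of its counts in shCon and 59.8% and 68.8% in shUBXN1. Overlaps were larger for genes such as CCT5 (30.8%), CCT4 (16.9%) and HSPA8 (11.4%), but those neighbours held at most 0.384% of the counts. The part of these overlaps in the results was not tested.

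Genes of the same pathway outside the list were compared in the same fit, over 74 genes of which 68 could be tested. Of these, 24 fell (35.3%) and 17 rose, with a median log2 fold change of -0.05, beside 28.2% that fell, 28.0% that rose and a median of 0.02 over all genes tested. The share that fell was thus near that of all genes, and the counts of the shorter lists that follow are descriptions to be read against the same shares. Their summed level was 3971 and 4057 TPM in shCon and 3697 and 3597 TPM in shUBXN1. The other HSP90 cofactors had 8 of 16 that fell and 3 that rose. FKBP5, an immunophilin of the steroid receptor complex, fell by 1.66 and CHORDC1, an HSP90-binding zinc protein, by 1.14. The 3 that rose were UNC45A (by 1.01), AHSA2P (by 0.64) and CDC37L1 (by 0.55). The list of other HSP70 cofactors had 2 of 8 that fell and 1 that rose. SGTA, which handles tail-anchored proteins, was lower by 1.73 on the log2 scale. The riser was HSPBAP1, higher by 0.55, which is named after the small heat shock protein HSPB1 and not after HSP70.

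Prefoldin, which delivers actin and tubulin to the chaperonin, was listed together with other chaperonin cofactors and with tubulin cofactors. Of these 15 genes, 6 fell and 2 rose (TBCB by 0.54 and TBCD by 0.32). The largest changes were those of the prefoldin subunits PFDN6 (-0.71) and PFDN4 (-0.63). J proteins outside the list were evenly divided, with 6 of 18 that fell and 7 that rose, and the largest changes were rises of DNAJC18 (2.25) and DNAJB5 (2.08). Of the other HSP70 and small heat shock proteins, 5 of 10 could be tested, 2 rose (HSPA12B by 1.94 and HSPA2 by 0.79) and 3 did not pass. HSPA6, an HSP70 made almost only under stress and picked after its values were seen, had 1.20 and 1.36 CPM in shCon and 1.94 and 1.28 CPM in shUBXN1, which overlapped (log2 fold change 0.33, adjusted p = 0.481, edgeR). The HSPA12B call was lost with DESeq2 (adjusted p = 0.0526) and without shCon replicate 1, shCon replicate 2 or shUBXN1 replicate 1 (adjusted p = 0.0895, 0.0620 and 0.0685, edgeR). The last list held other regulators of the heat shock response and also SERPINH1, a target of HSF1. Of its 6 tested genes, 2 fell and 2 rose. SERPINH1, or HSP47, the collagen chaperone of the endoplasmic reticulum, fell by 1.35, and the factor HSF4 rose by 0.85. The regulator that fell was HSBP1, by 0.22. Its call was lost in alternatives such as total count scaling and GC correction (adjusted p = 0.0812 and 0.0504, edgeR).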

How the data were processed

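RNA-seq libraries of MHCC97H cells (2 shCon, 2 shUBXN1) were analysed. The authors deposited expected counts per gene, not normalized, with a gene length; 62.4% to 64.6% of the values above 0 were whole numbers. The submitters' processing notes name HISAT2 2.0.4, StringTie 1.3.0 and GRCh37, whereas the methods of the study name Hisat2 and GRCh38. The labels name a VAHTS mRNA kit and the methods a TruSeq kit. The counting tool, annotation release and strand setting are not given in the sources used here. Genes were named by ID from GENCODE 44 (61369 of 61541 IDs, 99.7%), and coordinates are from that GRCh38 annotation. The table itself holds no coordinates.

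Counts were rounded, filtered with filterByExpr, scaled with TMM and tested with the quasi-likelihood test of edgeR 4.0.16 (R 4.3.3), without a block, over all 16863 genes passing the filter, with Benjamini-Hochberg adjustment. A gene rose or fell at an adjusted p under 0.05. A fold of 2 with an unadjusted p under 0.05 was a separate criterion. TPM were computed from the counts and lengths. Totals were 27380508 and 24305174 for shCon and 23433826 and 23373700 for shUBXN1, and the biological coefficient of variation was 0.0711. Replicates differed by more than sampling noise (chi-square per degree of freedom 3.75 and 8.34). The code was tested on simulated data.

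Alternatives were total count scaling, DESeq2 1.42.0, limma 3.58.1 (voom, and log2 of CPM + 1 or TPM + 1), other filters, unrounded counts, GC correction, a replicate block, a fold of 1.5, near-identical copies summed and each library left out. HSP90 and CCT6A pseudogene sums, the HSPB8 to BAG3 ratio and the background of genes at 100 CPM or more were added after seeing the data. The genes described and the lists were chosen with earlier results of these data known. Named genes were the heat shock factors, genes past the fold of 2, up to 2 largest rises and falls per role, 8 well-known chaperones and co-chaperones, and the 2 largest changes of each further list, and the rest are given in brief. Promoter windows are from RefSeq (GRCh38.p14).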

Additional observations from a re-analysis of the deposited data

How the results depend on the processing

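Of the 28 genes that fell, 28 stayed lower and 22 stayed past the threshold in every alternative in which they were tested, as did 2 of the 3 that rose. CRYAB, with 8 counts in a shUBXN1 library, was not tested with 10 counts required in every library, which left 5 stress-inducible genes that fell and 2 genes lower past the fold of 2. The number that fell ranged from 23 (without shCon replicate 2) to 32 (without shUBXN1 replicate 2), and was 25 with total count scaling, under which the median over all genes was 0.10 in place of 0.02 (log2). Of the heat shock factors, 1 fell with total count scaling and 1 with limma on log2(TPM + 1). Of the co-chaperones, 1 rose with DESeq2, and 1 to 3 with a library left out. The other pathway genes that fell numbered 15 (without shCon replicate 2) to 26. At the fold of 2, limma on log2(CPM + 1) called 1005 genes higher and 632 lower, limma on log2(TPM + 1) 1028 and 524, and a filter of 10 counts in every library 1321 higher. A fold of 1.5 called 3201 genes higher and 2435 lower, and 2 and 14 of the 39 genes. The cause of these changes was not tested, except that a pseudocount of 1 shrinks folds of low genes, a filter tests fewer genes and a lower fold admits more.

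Replicate numbers are shared between groups, but deviations of same-numbered libraries hardly correlated (r = 0.039 across genes), so the numbers were not taken to pair them. With a replicate block, 29 genes fell, FKBP4 (log2 fold change -0.17, adjusted p = 0.0417, edgeR) being added, and 3 rose. Gained calls without shUBXN1 replicate 2 were HSPB1, FKBP4, HSPA4 and DNAJB6 (log2 fold changes -0.21, -0.27, -0.24 and -0.18). STUB1 was past the threshold with total count scaling, limma on log2(TPM + 1), 10 counts in every library and without shUBXN1 replicate 1 (log2 fold changes 0.25, 0.22, 0.19 and 0.18). The smallest difference that 2 libraries per group could detect at this depth was not measured. Arms left with 1 library were assumed to vary like the other group.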

Other observations

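By CPM, in 24 of the 28 genes that fell, shUBXN1 replicate 2 lay nearer to the shCon libraries than shUBXN1 replicate 1 did. The exceptions were HSF2, CRYAB, HSPB11 and BAG2. By TPM, replicate 2 was the lower one for several of the 24 as well. In replicates 1 and 2 of shUBXN1, HSPA1B had 152 and 145 TPM, DNAJB1 115 and 113 TPM, and AHSA1 179 and 170 TPM. The pattern therefore depends on the scaling.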
